A study of Rattus norvegicus with 10 samples.

Results

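Cytosolic ribosomal proteins are the protein parts of the large and small subunits of the ribosome outside mitochondria. Their genes were taken from the array by symbol: Rpl or Rps followed by a number and at most 2 letters, plus Rplp0, Rplp2 and Rpsa, without the Rps6k kinases and pseudogenes. The rule found 58 genes of 18166 measured by name, 56 through the platform symbol and 2 through a RefSeq synonym. The L-forms are paralogues with restricted expression, and 3 of the 58 are L-forms: Rpl3l, Rpl10l (listed in rat as Rpl10l1) and Rpl39l (listed in rat as Rpl39l1). Of the other 55, 37 belong to the large and 18 to the small subunit. Where a gene had several probe sets, the one with the highest mean over all arrays stood for it.

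RNA from testes of Zucker rats, a strain known for obesity from a mutated leptin receptor (fa/fa), was measured on 10 Affymetrix arrays. Obese rats gave 4 arrays of under-developed testes and 4 of normally developed ones, and lean rats gave 2 arrays of normally developed testes. Every rat was labelled as 14 weeks old and of the fa/fa model, the lean ones included, so whether the lean rats carried fa/fa cannot be told. Replicates are labelled biological without stating separate animals, and p-values therefore measure only the spread between these samples. Levels are log2 values from RMA, a method that corrects, normalizes and summarises probe signals, and they ranged from 2.28 to 14.04 with array medians of 6.14 to 6.38.

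One array stood apart from its label. The 6 normally developed arrays correlated with each other over all genes at 0.994 to 0.997. Under-developed replicates 1, 2 and 3 had mean correlations with those 6 arrays of 0.856, 0.946 and 0.731, whereas replicate 4 had 0.995. Results are given with and without replicate 4. That array was set aside for its profile in these same data, so p-values without it are smaller than an independent choice would give.

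Every cell makes ribosomes, and ribosomal protein genes are usually expressed together and at high levels. In vertebrates their mRNAs start with a C and a run of pyrimidines, the terminal oligopyrimidine or TOP motif, which ties their translation to the mTOR pathway. The parents of Rpl10l and Rpl39l, Rpl10 and Rpl39, lie on the X chromosome, which is transcriptionally silenced during meiosis in male germ cells. Rpl10l and Rpl39l lie on autosomes and are known in mouse from spermatogenic cells, and Rpl3l is known from heart and skeletal muscle.

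The starts of the 3 paralogue pairs are shown because the pairs carry the contrast between the L-forms and their parents. Each sequence is 30 bases long, from 10 bases before to 20 bases after the annotated start on the gene's own strand, from RefSeq (GRCr8). For Rpl3 the start used lay inside the gene, whose RefSeq span on the minus strand begins at base 113508115. Its window and the pyrimidine search below therefore do not cover the outermost start of Rpl3. Capitals mark runs of at least 6 C or T letters that include a C.
Rpl10l1, chr6:90281963-90281992, minus strand: tctccattttgctgctggcggtgagcacgc
Rpl10, chrX:157205840-157205869, plus strand: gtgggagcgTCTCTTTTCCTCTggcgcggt
Rpl39l1, chr10:5966602-5966631, minus strand: caggccgtcccgctatcctggtgtgtggtc
Rpl39, chrX:121195877-121195906, minus strand: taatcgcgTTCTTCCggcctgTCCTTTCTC
Rpl3l, chr10:14258436-14258465, plus strand: ctggtgcctggtggggaggTCCCTTCCTaa
Rpl3, chr7:113507971-113508000, minus strand: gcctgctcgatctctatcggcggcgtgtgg

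RefSeq promoters were matched for 48 of the 58 genes. Within 25 bases of the start on either side, on the gene's strand, such a pyrimidine run was found in 2 of 3 L-form promoters and in 39 of 45 other ribosomal protein promoters (86.7%), against 8022 of 18999 promoters of all protein-coding genes (42.2%). The L-form without one was Rpl10l1, and the run of Rpl39l1 lay outside the 30 bases shown. The CRE palindrome TGACGTCA, searched over the 300 bases of each promoter, was in 0 of 3 L-form promoters and in 3 of 45 others (6.67%), against 2.22% of all. AACNGTT, a core letter pattern bound by MYB proteins that include the meiotic regulator MYBL1, was in the Rpl39l1 promoter and in 1 of the 45 others, against 4.04% of all. Both patterns read alike on the 2 strands. These matches describe letters and are not binding sites.

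**Figure D1:**
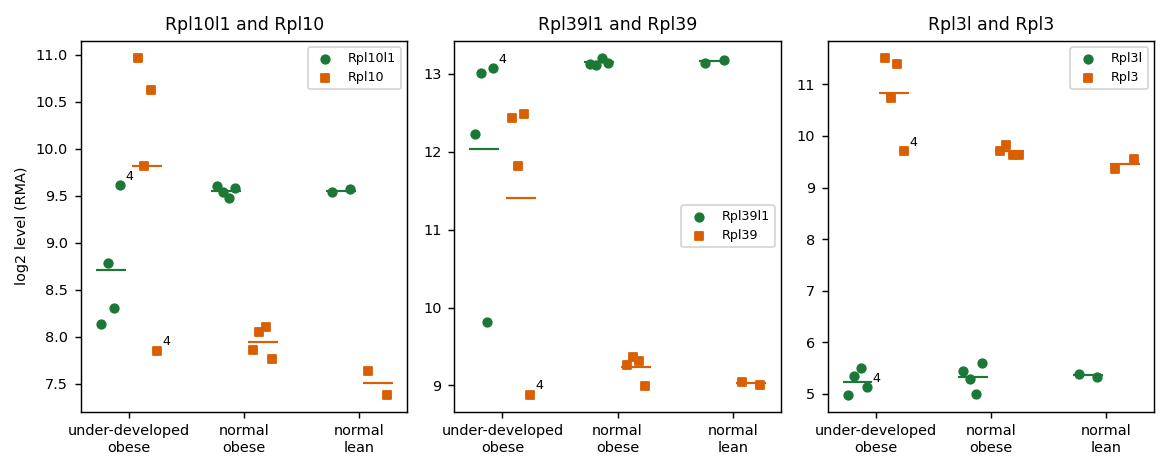
Log2 levels (RMA) of the L-form paralogues Rpl10l1, Rpl39l1 and Rpl3l (circles) and their parents Rpl10, Rpl39 and Rpl3 (squares) in under-developed obese (4), normal obese (4) and normal lean (2) arrays. Points are arrays, lines are group means and 4 marks under-developed replicate 4, which lies near the normal arrays in all 3 panels. Levels of different probe sets on an axis are not comparable.

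The first comparison asked which ribosomal protein genes differed between under-developed and normally developed testes of obese rats. In under-developed replicates 1 to 3, most of the general ribosomal protein genes lay above the normal arrays, the X-linked Rpl39 and Rpl10 by most. The testis paralogues Rpl10l1 and Rpl39l1 lay below the normal arrays, and Rpl3l showed no shift. Replicate 4 lay much closer to the normal arrays, slightly below them for Rpl39l1.

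Rpl39, a small protein of the peptide exit tunnel, had log2 levels of 12.43, 11.82, 12.48 and 8.88 in under-developed testes, 9.26, 9.37, 9.31 and 8.99 in normal testes of obese rats and 9.05 and 9.01 in lean rats. Replicates 1 to 3 lay above every normal array, and replicate 4 lay below all 6. Over all 4 replicates the log2 difference from normal obese testes was 2.17 ± 0.70 (SE), with an adjusted p of 0.0702 in limma. Without replicate 4 Rpl39 rose by 3.01 ± 0.17, which is 8.04-fold, with an adjusted p of 5.04e-05 in limma, and it ranked number 74 among all genes. The array held 6 probe sets for Rpl39, 2 of them with identical values, and they lay 2.70 to 3.01 above the normal obese mean in replicates 1 to 3.

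Rpl39l1, its paralogue, had 12.23, 13.01, 9.82 and 13.07 in under-developed testes, against 13.13, 13.11, 13.21 and 13.14 in normal obese testes and 13.14 and 13.18 in lean testes. All 4 under-developed arrays lay below all 6 normal arrays, but replicates 2 and 4 lay at -0.14 and -0.08 from the normal obese mean and replicate 3 at -3.33. The difference did not pass the test, at -1.12 ± 0.63 with all arrays (adjusted p = 0.186, limma) and -1.46 ± 0.62 without replicate 4 (adjusted p = 0.072, limma). With array weights it passed, at -1.03 ± 0.31 with all arrays (adjusted p = 0.0147, limma) and -1.82 ± 0.55 without replicate 4 (adjusted p = 0.0264, limma). Relative to Sertoli cell markers it also passed, at -2.22 ± 0.84 (adjusted p = 0.037, limma) and -2.93 ± 0.71 (adjusted p = 0.00336, limma). On that scale 75.8% and 88.4% of all genes were called lower, so passing there is no result about Rpl39l1. On the RMA scale without replicate 4, Rpl39l1 ranked number 1774 from the lowest among all genes. The size of the difference rests on replicate 3. With both replicates 3 and 4 left out it was -0.53 ± 0.19 (adjusted p = 0.0384, limma), and with both 2 and 4 left out it was -2.13 ± 0.53 (adjusted p = 0.00768, limma).

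Rpl10, a large subunit protein needed for subunit joining, had 10.97, 9.82, 10.62 and 7.85 in under-developed testes, against 7.86, 8.05, 8.10 and 7.76 in normal obese testes and 7.63 and 7.38 in lean testes. Replicates 1 to 3 lay above all normal arrays and replicate 4 lay among them. The difference from normal obese testes was 1.88 ± 0.58 with all arrays (adjusted p = 0.0702, limma). Without replicate 4 Rpl10 rose by 2.53 ± 0.25, or 5.78-fold (adjusted p = 0.000105, limma), and ranked number 215 among all genes. Its second probe set lay 1.76 above the normal obese mean in replicates 1 to 3.

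Rpl10l1, which replaces Rpl10 in mouse meiotic cells, had 8.13, 8.78, 8.30 and 9.61 in under-developed testes, against 9.60, 9.54, 9.48 and 9.58 in normal obese testes and 9.54 and 9.57 in lean testes. Replicates 1 to 3 lay below every normal array, and replicate 4 lay just above all 6. With all arrays the difference from normal obese testes was -0.85 ± 0.28 (adjusted p = 0.0702, limma). Without replicate 4 Rpl10l1 fell by 1.15 ± 0.15 on the log2 scale (adjusted p = 0.000342, limma). It ranked number 2345 from the lowest among all genes, so many genes fell further.

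Rpl3l had 4.98, 5.34, 5.50 and 5.13 in under-developed testes, against 5.45, 5.29, 5.0 and 5.59 in normal obese testes and 5.38 and 5.33 in lean testes. The groups overlapped throughout, and the level lay under the lowest 25% mark of all genes (5.70). Without replicate 4 the difference was -0.06 ± 0.17 (adjusted p = 0.789, limma). Of 7 striated muscle markers measured, 0 passed in either direction without replicate 4, where 29.6% of all genes rose and 26.4% fell. The mean level of these markers was 5.75 to 5.99 in under-developed replicates 1 to 3 and 5.74 to 5.83 in normal obese arrays. Rpl3, its ubiquitous parent in the core of the large subunit, had 11.52, 10.73, 11.40 and 9.70 in under-developed testes, against 9.71, 9.83, 9.64 and 9.64 in normal obese testes, and rose by 1.51 ± 0.18 without replicate 4 (adjusted p = 0.000245, limma).

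Each of the 3 L-forms was also set against its parent within each array, as its change from the normal obese mean minus the parent's change. For Rpl10l1 minus Rpl10 this was -4.45, -2.65 and -3.93 log2 in under-developed replicates 1, 2 and 3, and 0.15 in replicate 4. For Rpl39l1 minus Rpl39 it was -4.12, -2.72 and -6.58 log2 in replicates 1, 2 and 3, and 0.27 in replicate 4. For Rpl3l minus Rpl3 it was -2.17, -1.03 and -1.53 log2 in replicates 1, 2 and 3, and -0.20 in replicate 4, with Rpl3l itself at -0.35, 0.01, 0.16 and -0.20. The rise of a parent alone therefore gives a negative value. Over the 3 pairs these values were between -0.26 and 0.32 in the normal obese arrays and between 0.13 and 0.57 in the lean arrays. The median difference of the 55 other genes from normal obese testes was 0.65 without replicate 4, and Rpl10l1 lay at -1.80 and Rpl39l1 at -2.11 log2 from that median.

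**Figure D2:**
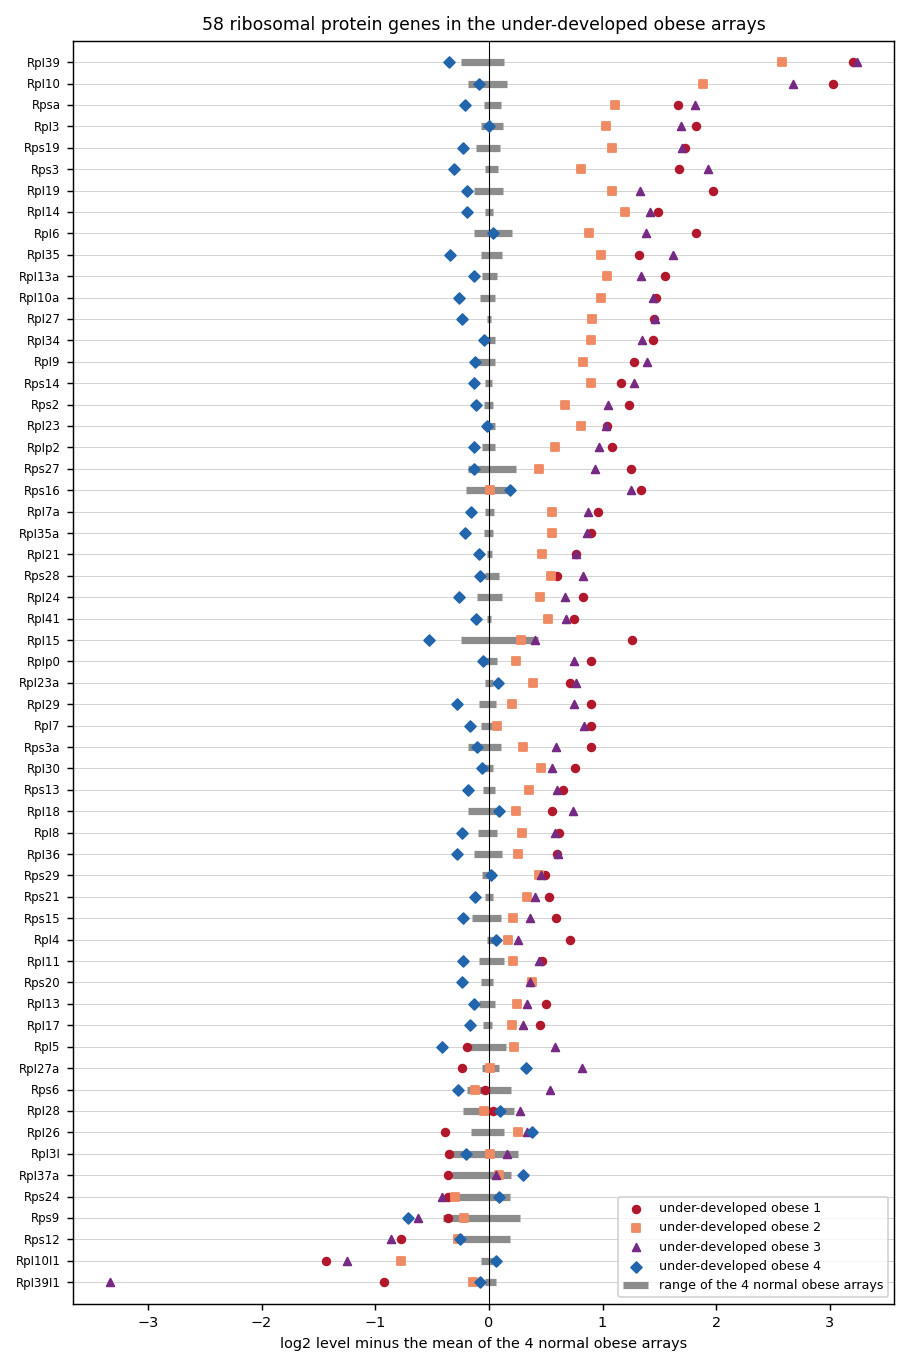
Log2 level of each of the 58 ribosomal protein genes in under-developed obese arrays 1 to 4 (coloured symbols), minus the mean of the 4 normal obese arrays, whose range is the grey bar. Genes are ordered by the mean of replicates 1 to 3, from Rpl39 at the top to Rpl39l1 at the bottom, and replicate 4 lies near 0 for nearly all. Relative to Sertoli cell markers the direction of most of these genes turns.

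Over all 4 under-developed arrays, 0 of the 58 genes passed an adjusted p of 0.05 in limma in either direction, as for all genes (0.0%), with a lowest adjusted p of 0.0702. Before adjustment 29 genes with p under 0.05 were higher and 2 lower (Rpl10l1 and Rps12), against 24.4% and 22.3% of all genes. Of the 58, 3 (Rpl4, Rpl18 and Rpl23a, named after their values were seen) lay above every normal obese array in all 4 replicates (7.44% of all genes did) and 1, Rpl39l1, lay below (10.4% of all genes). Without replicate 4, 45 of the 58 rose (77.6%, against 29.6% of all genes), 3 fell (26.4% of all genes) and 10 did not pass. All 45 that rose were among the 55 genes that are not L-forms.

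The median difference of those 55 genes was 0.65 log2 without replicate 4 and 0.46 with it, against 0.07 and 0.06 for all genes. With each array centred on the Sertoli cell markers in place of the RMA scale, the median of the 55 turned to -0.82 without replicate 4, that of all genes moved to -1.40, and the calls became 2 higher and 44 lower. On that scale 4.05% of all genes were called higher and 88.4% lower, so the 44 are no result about these genes. There Rpl39 (1.54) and Rpl10 (1.06) were higher and Rpl10l1 (-2.61) and Rpl39l1 (-2.93) were lower, while Rpsa (0.06), Rpl3 (0.05) and Rps19 (0.03), which rose on the RMA scale, did not pass. A rise of the other ribosomal protein genes thus stands relative to the average gene and not to Sertoli cell genes. In whole tissue, fewer cells of a type and less RNA per cell cannot be told apart.

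In the large subunit, 31 of 37 genes rose without replicate 4, 0 fell, and the median difference was 0.65. In the small subunit, 14 of 18 rose, 2 fell, and the median was 0.56. Of all genes, 29.6% rose and 26.4% fell in this fit. Rpsa, a small subunit protein also known as the laminin receptor, had 12.02, 11.47, 12.17 and 10.15 in under-developed testes, against 10.33, 10.32, 10.34 and 10.47 in normal obese testes. It rose by 1.53 ± 0.16 without replicate 4 (adjusted p = 0.000141, limma), the highest value among the autosomal genes, and replicate 4 lay below all normal obese arrays. Rps19, needed for maturation of the small subunit and mutated in Diamond-Blackfan anaemia, had 11.39, 10.74, 11.36 and 9.44 against 9.69, 9.76, 9.66 and 9.55 in normal obese testes and rose by 1.50 ± 0.17 without replicate 4 (adjusted p = 0.000171, limma). As with Rpsa, replicates 1 to 3 lay above and replicate 4 below all normal obese arrays.

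The ribosomal stalk recruits translation factors to the large subunit. Its base Rplp0 rose by 0.63 ± 0.16 (adjusted p = 0.0102, limma) and its acidic protein Rplp2 by 0.88 ± 0.13 (adjusted p = 0.000575, limma) without replicate 4. Rps6, the classical substrate of the S6 kinases, had 6.31, 6.22, 6.87 and 6.07 in under-developed testes, against 6.25, 6.41, 6.53 and 6.14 in normal obese testes. The groups overlapped, and the difference of 0.13 ± 0.17 did not pass (adjusted p = 0.555, limma).

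Besides Rpl10l1, the genes that fell without replicate 4 were the small subunit genes Rps12 and Rps24. Rps12 had 6.10, 6.61, 6.01 and 6.63 in under-developed testes, against 7.06, 7.03, 6.60 and 6.80 in normal obese testes, and fell by 0.63 ± 0.17 (adjusted p = 0.0125, limma). The groups overlapped in Rps12 at 1 normal obese array. With array weights in the same fit, Rps12 (adjusted p = 0.307, limma) and Rplp0 (adjusted p = 0.247, limma) no longer passed. Rps24 had 8.08, 8.14, 8.02 and 8.52 against 8.57, 8.62, 8.11 and 8.44 in normal obese testes, and its difference of -0.36 ± 0.13 was close to the threshold (adjusted p = 0.0493, limma). The call of Rps24 did not hold: leaving out any further array but normal obese replicate 3 gave limma adjusted p-values of 0.0507 to 0.125. It also ended with trend and robust moderation (adjusted p = 0.0558, limma), with only the 2 groups compared (adjusted p = 0.071, limma), with the replicate block (adjusted p = 0.0927, limma) and with array weights (adjusted p = 0.58, limma). Rps9 showed -0.40 ± 0.24 and did not pass (adjusted p = 0.195, limma).

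The 10 genes that did not pass without replicate 4 were Rpl39l1, Rpl3l, Rps6, Rps9, Rpl5, Rpl15, Rpl26, Rpl27a, Rpl28 and Rpl37a, listed here after their values were seen. All of these but Rpl39l1 had a mean level under the median of all genes (7.01), as 12 of the 58 did. The 5 under the lowest 25% mark were Rpl26, Rpl27a, Rpl3l, Rpl5 and Rps9.

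The shift differed between the under-developed arrays. The median of the 55 genes lay 0.90, 0.44 and 0.77 log2 above the normal obese mean in replicates 1, 2 and 3, and 0.13 below it in replicate 4. For all genes the same medians were 0.03, -0.02, 0.17 and 0.00. Of replicates 1 to 3, replicate 2 had the lowest level in 47 of the 55 genes. It also had the highest mean correlation with the normal arrays over all genes (0.946, against 0.856 and 0.731). The share of all genes with this order was not counted. In replicate 4, 37 of the 58 genes lay below all 4 normal obese arrays (63.8%, against 25.6% of all genes), and 7 lay above them, against 23.7% of all genes. In replicates 1 to 3, 43 genes lay above all 6 normal arrays (28.7% of all genes did), Rpl10l1 and Rpl39l1 lay below (26.7% of all genes), and 13 overlapped.

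**Figure D3:**
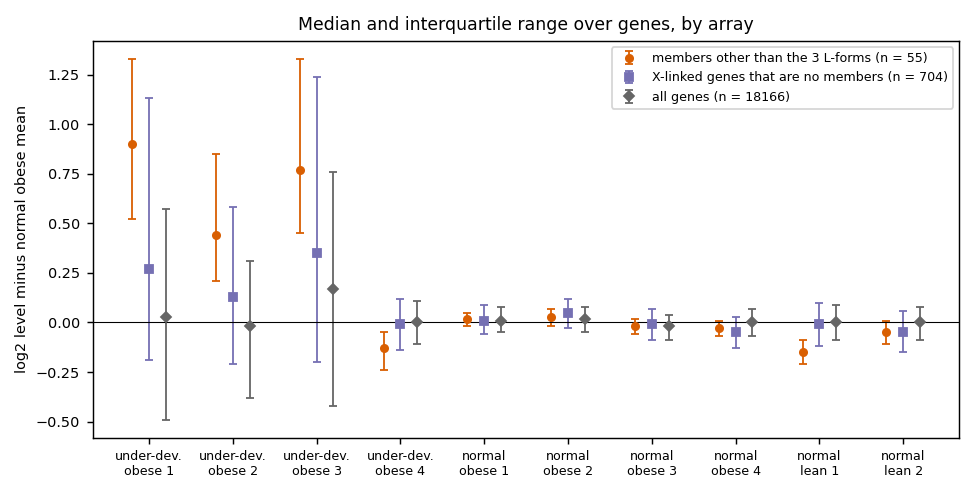
Median (symbol) and interquartile range over genes (bar) of the log2 level minus the normal obese mean, for each array, for the 55 ribosomal protein genes other than the L-forms, 704 X-linked genes that are not among them and all 18166 genes. The ribosomal protein median is 0.90, 0.44 and 0.77 in under-developed replicates 1 to 3 and -0.13 in replicate 4, and it turns below 0 for the group when arrays are centred on Sertoli cell markers.

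Rpl10 and Rpl39 are the only genes of the 58 that RefSeq places on the X chromosome. For 2 others, Rpl37a and Rps9, no chromosome was found there. The 704 other X-linked genes had a median difference of 0.22 without replicate 4, with 288 higher (40.9%) and 132 lower (18.8%), against 29.6% and 26.4% of all genes. The 51 autosomal genes other than the L-forms had a median of 0.65, with 43 higher and a highest value of 1.53. Rpl10 and Rpl39 thus lay above both the median X-linked gene and every autosomal ribosomal protein gene measured. No test of that difference was made.

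A further pair fell outside the rule. Rps4x, an X-linked small subunit gene, was read only through Rps4x-ps9, which RefSeq lists as a pseudogene with the synonym Rps4x. Its kept probe set read 12.80, 12.13, 12.70 and 9.61 in under-developed testes, against 9.90, 9.84, 9.79 and 9.49 in normal obese testes, and its 2 probe sets lay 2.43 and 2.79 above the normal obese mean in replicates 1 to 3. Rps4y2, an autosomal gene of the same family in rat, had 7.08, 7.53, 6.08 and 8.08 against 8.15, 8.24, 8.29 and 8.28 in normal obese testes and fell by 1.34 ± 0.29 without replicate 4 (adjusted p = 0.00382, limma). Replicates 1 to 3 lay above all normal arrays in the first of these and below them in the second. Ribosomal protein genes have many near-identical processed copies, and a probe set can take up signal from them.

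Among ribosomal proteins with other names and further paralogues, 6 were measured, and without replicate 4, 2 rose and 3 fell, Rps4y2 included. Of all genes, 29.6% rose and 26.4% fell in the same fit. Rack1, a scaffold on the small subunit, rose by 1.87 ± 0.18 (adjusted p = 0.000104, limma). Fau, which encodes the small subunit protein eS30 as a fusion, fell by 1.34 ± 0.37 (adjusted p = 0.0139, limma). Its levels were 10.04, 11.03, 9.05 and 11.24 in under-developed testes and 11.37, 11.37, 11.32 and 11.47 in normal obese testes, and all 4 under-developed arrays lay below the normal obese ones. Rpl22l1 fell by 0.46 ± 0.15 (adjusted p = 0.0302, limma), and Rpl7l1 differed by 0.03 ± 0.11 (adjusted p = 0.861, limma).

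Other lists of the translation apparatus are given without replicate 4, where 29.6% of all genes rose and 26.4% fell, and no test compared them with the ribosomal protein genes. Of 71 mitochondrial ribosomal proteins, 22 rose and 20 fell, with a median of 0.04. Of 98 ribosome biogenesis genes 34 rose and 25 fell (median 0.03), of 40 initiation factors 11 rose and 19 fell (median -0.28), and of 19 elongation and termination factors 3 rose and 10 fell (median -0.33). Eef1a1, which brings aminoacyl-tRNA to the ribosome, rose by 0.30 ± 0.08, and Pabpc2 and Pabpc6, poly(A)-binding proteins, fell by 2.83 ± 0.94 and 2.84 ± 0.79. Of 34 regulators of mTOR and TOP mRNAs 21 rose and 5 fell (median 0.52): Akt1, a kinase upstream of mTOR, rose by 2.13 ± 0.23, and Larp1, which binds the TOP motif, fell by 0.90 ± 0.09.

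Cell type markers also differed between these arrays, in both directions, and their part in the result was not tested. Without replicate 4, 29.6% of all genes rose and 26.4% fell. In that fit 0 of 12 spermatid markers rose and 11 fell (median -2.60), and 0 of 10 spermatocyte markers rose and 9 fell (median -2.49). Their mean levels were 7.63 to 11.26 in under-developed replicates 1 to 3 against 11.98 to 12.01 in normal obese arrays for spermatids, and 6.65 to 10.06 against 10.63 to 10.76 for spermatocytes. Of 17 Sertoli cell markers 13 rose and 1 fell (median 1.65), with mean levels of 9.11 to 9.68 against 7.89 to 8.07. Of 7 Leydig cell markers 5 rose (median 1.42) and of 10 macrophage markers 9 rose and 1 fell (median 2.24). Spermatogonial markers did not go one way: of 6 measured, 2 rose and 2 fell (median 0.14). In replicate 4 the means of these lists lay between -0.27 and 0.03 of the normal obese mean.

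**Figure D4:**
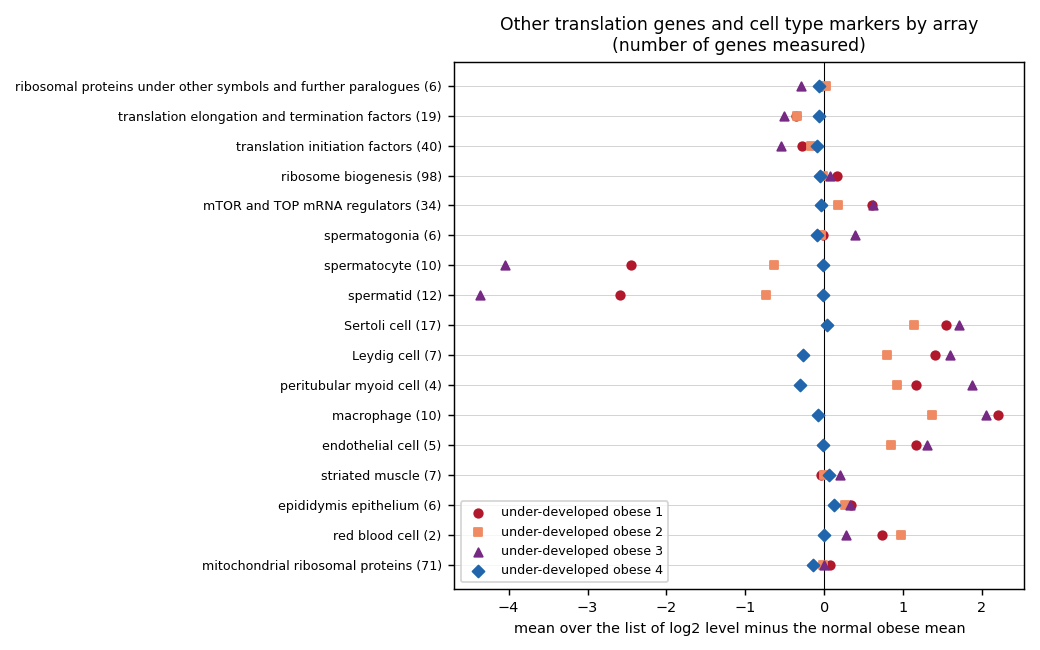
Mean over each list of the log2 level minus the normal obese mean, in under-developed obese arrays 1 to 4, for other translation genes and cell type markers, with the number of genes measured in parentheses. Spermatocyte and spermatid means lie far below 0 in replicates 1 and 3 and less far in replicate 2. Sertoli, Leydig, peritubular myoid, macrophage and endothelial means lie above 0 in replicates 1 to 3, while striated muscle means lie near 0 in replicates 1 and 2. Replicate 4 lies near 0 and is lowest for peritubular myoid (-0.3) and Leydig (-0.27) cells.

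The second comparison set normally developed testes of obese rats against those of lean rats. No ribosomal protein gene passed in limma (0 of 58, against 0.0% of all genes), and before adjustment the count with p under 0.05 was also 0 of 58, against 0.121% of all genes higher and 0.319% lower. The median difference was 0.09 log2, against 0.01 for all genes. In 16 of the 58 the 4 obese arrays lay above both lean arrays (27.6%, against 7.7% of all genes), and in 0 they lay below (7.27% of all genes). The median of the 55 genes in lean replicates 1 and 2 lay at -0.15 and -0.05 from the normal obese mean. Without lean replicate 1 the median difference of the 55 was 0.05, and without lean replicate 2 it was 0.15.

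The differences between obese and lean testes ran from -0.17 ± 0.22 for Rps12 to 0.43 ± 0.28 for Rpl5 and 0.43 ± 0.71 for Rpl10, each with an adjusted p of 1.0 in limma. Rpl29 followed with 0.31 ± 0.30 and Rps27 with 0.28 ± 0.34. Rpl10l1 averaged 9.55 ± 0.05 in normal obese testes (SD, n = 4) and 9.55 ± 0.02 in lean testes (SD, n = 2). Rpl39l1 averaged 13.15 ± 0.04 and 13.16 ± 0.03, and neither paralogue differed beyond its spread. Among normal obese arrays the median SD of the 58 genes was 0.066, against 0.102 for all genes.

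The third comparison set the under-developed testes against the lean normal ones and used the same under-developed arrays as the first. With all arrays 0 of 58 genes passed in limma, as for all genes (0.0%). Before adjustment 17.5% of all genes were higher and 14.3% lower at p under 0.05. Without replicate 4, 43 rose (25.6% of all genes) and 2, Rpl10l1 and Rps12, fell (23.2% of all genes), with a median of 0.70, against 0.04 for all genes. Rpl39 rose by 3.21 ± 0.21 (adjusted p = 0.000128, limma), Rpl10 by 2.96 ± 0.29 (adjusted p = 0.000225, limma) and Rpl3 by 1.76 ± 0.22 (adjusted p = 0.000466, limma). Rpl10l1 fell by 1.15 ± 0.18 (adjusted p = 0.00118, limma), and Rpl39l1, at -1.48 ± 0.74, did not pass (adjusted p = 0.13, limma).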

How the data were processed

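RNA of 10 testes was hybridised to Affymetrix rat arrays, labelled with the WT PLUS kit per the labels' protocols. The authors deposited log2 values per probe set, made with RMA per the submitters' processing notes; the genome build and the settings and version of RMA are not given in the sources used here. RMA normalizes between arrays, so values are relative to the average gene. Of 36685 probe sets, 18511 had 1 gene symbol in the platform annotation, 575 several and 17599 none here; 18394 matched RefSeq (GRCr8). For 291 genes with several probe sets, the one with the highest mean was kept, which gave 18166 genes and no filter on low values. Depth does not apply to arrays, and their number limits the precision.

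Groups came from sample titles. Differences were fitted with limma 3.58.1 (R 4.3.3, lmFit, eBayes) on all 10 arrays with a mean per group, Benjamini-Hochberg adjustment over all genes and a threshold of 0.05. The fit was tested on simulated data in which all 4 under-developed arrays shifted alike, so an array such as replicate 4 was not covered. SE is that of the fit. The fit without under-developed replicate 4 leaves that array out. The members, gene lists and tests were chosen with earlier results of these data known. Named genes were the L-forms and their parents, X-linked members, Rplp0, Rplp2, Rpsa, Rps6, Rps27, the 5 highest and 5 lowest differences per comparison and the 3 highest and lowest of each list; the text gives a selection. Figures used Python 3.11.15 and matplotlib 3.10.9. Same-numbered samples were not treated as pairs in these fits, and the titles do not say whether they are. A further 23 ribosomal protein symbols of RefSeq were not analysed here, for example where a probe set names several genes. Alternatives were other scalings, an offset of 50, filters, means over probe sets, other moderation and weights, fewer groups, a replicate block and leaving out each array.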

Additional observations from a re-analysis of the deposited data

Results flagged for a closer look

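In 40 groups of 4 arrays (20 named genes in under-developed and in normal obese testes), 1 array lay far from the other 3. Rps29 had 12.98 in under-developed replicate 4, against 13.45, 13.40 and 13.42 in replicates 1, 2 and 3, and the gap was 0.903 of the group's range, above Dixon's critical value for 4 arrays. Chance gives such a gap in about 5% of groups. The 4 normal obese arrays had 12.99, 13.01, 12.93 and 12.90.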

How the results depend on the processing

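Centring each array on the Sertoli cell markers turned the median difference of the 55 genes other than the L-forms to -0.65 (under-developed against normal obese testes), -0.82 (the same without replicate 4) and -0.64 (under-developed against lean), and 38 members passed in the first comparison, 2 higher and 36 lower, against 1.37% of all genes higher and 75.8% lower. By construction it sets those markers level, and all genes then moved to -1.04, -1.40 and -1.11. It also turned Rplp0 (-0.65), Rplp2 (-0.48), Rps19 (-0.04), Rps27 (-0.49), Rps6 (-1.08) and Rpsa (-0.02) with all arrays, and Rplp0 (-0.84), Rplp2 (-0.59), Rps27 (-0.59) and Rps6 (-1.34) without replicate 4. Array weights, which weigh down arrays that stand apart, gave 49 members passing in the first and in the third comparison (46 higher and 3 lower), where 28.4% and 27.3% of all genes were called higher and 25.9% and 25.6% lower. Without replicate 4 they gave 26 members (24 higher and 2 lower), against 16.2% of all genes higher and 18% lower; the cause of the lower counts was not tested. In the other alternatives run, the counts and medians kept their side.

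Leaving out single arrays gave 0 to 48 members in the first comparison and 0 to 45 in the third. Both counts were highest without under-developed replicate 4. There 29.6% of all genes were called higher and 26.4% lower in the first comparison, and 25.6% and 23.2% in the third. Between obese and lean the count was 0 in each case. In the fit without replicate 4 it was 42 to 49, for which shares of all genes are not given here. Differences near 0 changed sign. Rps6 was -0.09 after median centring and after repeated quantile normalization, and -0.14 to 0.13 without single arrays; without replicate 4 it was -0.01 after median centring and -0.07 to 0.25 without a further array. Rpl3l without replicate 4 was 0.08 with array weights, 0.02 with the replicate block and -0.17 to 0.08 without a further array. Between normal obese and lean testes, Rpl10l1 was 0.05 and Rpl39l1 0.04 after median centring, Rpl39l1 0.00 after quantile normalization and 0.27 with the block, and without single arrays they ranged from -0.02 to 0.02 and from -0.03 to 0.01.

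With the replicate number as a block, 0 members passed in the first comparison and 37 in the fit without replicate 4 (35 higher, 2 lower). Of all genes, 0.0% passed in the first, and 24.9% were higher and 22.9% lower without replicate 4. Same-numbered under-developed and normal obese samples correlated at 0.077, 0.007, 0.024 and 0.26 in their deviations from the group means, and obese and lean ones at 0.135 and -0.056. Deviations in the under-developed group also hold the gap between replicate 4 and the others. Whether the numbers pair the samples therefore cannot be told. With members taken by the platform symbol alone, chosen after the data were seen, 47 of 56 passed without replicate 4. In that fit 29.6% of all genes rose and 26.4% fell. Filters on dim genes left 53 and 46 members. Members such as Rpl5 and Rps9 lie near the low end of signal, where a change is hard to see.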
